A study of Drosophila melanogaster with 46 samples.

Results

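The genes described here encode the subunits of the proteasome of Drosophila melanogaster. They were taken by name: 40 of the 11981 genes that a probe set of the array names alone carry a symbol starting with Prosalpha, Prosbeta, Rpn or Rpt. Of these 26 are the general subunits, called constitutive below, and 14 are the copies whose symbols end in R or T, which were counted apart. The rule uses names alone, and it was set with earlier results of these data known.

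The proteasome is the large protease that degrades ubiquitin-tagged proteins in every cell. Its core particle is a barrel built from Prosalpha rings, which form the gate, and Prosbeta rings, which hold the catalytic sites. The regulatory particle caps the barrel, where Rpn subunits bind substrates and remove the ubiquitin and Rpt ATPases unfold the protein and feed it in. In Drosophila the R and T copies are known mainly from the testis.

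Whole virgin females of 2 lines were compared: SR, a starvation-resistant line obtained by selection, and its control line C. Flies of each line were kept on malnutrition, optimal food or overfeeding (0.5x, 2x and 5x the yeast and sugar of the standard medium) and collected old, at 10% survival of their cohort, or middle-aged, at 90% survival. The 12 groups held 4 arrays each, except that old C flies had 3 each on malnutrition and on overfeeding, and an array is 1 pool of 5 females. Each selection regime is represented by 1 line, so a line difference is a difference between these lines, and p-values measure the spread between pools. In whole flies, a change in the share of an organ and a change within its cells cannot be told apart. Age classes were set by survival, so old SR flies and old C flies need not have the same age in days.

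Values are log2 expression as deposited, where a difference of 1 is a doubling, and a larger value is not a larger amount of transcript when different genes are compared. A call means an adjusted p under 0.05 in limma, fitted over all 46 arrays and adjusted by the Benjamini-Hochberg method over all 18952 probe sets. For each comparison the percentage of all probe sets called is given beside the count of members. Some counts of members use an unadjusted p under 0.05. The percentage beside them is still that of adjusted calls, so it is no background for such counts. The share of all probe sets at that unadjusted threshold is not given here. Errors of differences are standard errors, and errors of group levels are standard deviations.

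All 26 constitutive subunits were read well above the dim end of the array, with probe set means between 9.99 for Rpn1, a scaffold of the regulatory particle, and 11.82 for Prosbeta3. They comprise 6 alpha ring, 6 beta ring, 4 ATPase and 10 non-ATPase subunits. No probe set naming a single gene was analysed for Prosbeta1, Rpt1, Rpt6, Rpn9 or Rpn10, and the probe set of Prosalpha1 is shared with its copy Prosalpha1R. The 14 copies had means between 3.33 and 4.54, except Prosbeta2R2 at 5.96. A list of 13 testis genes averaged 3.67 to 3.92 over the arrays, and 11 of its genes had means under 5 in these all-female pools.

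The mean over the 26 constitutive subunits was lowest in middle-aged SR flies on optimal food, at 10.90 ± 0.17 (n = 4), and 15 of the 26 had their lowest group mean there. Old C flies on optimal food, at 10.95 ± 0.09 (n = 4), held the lowest mean of another 7. The mean was highest in middle-aged C flies on overfeeding, at 11.26 ± 0.06 (n = 4), where 22 of the 26 had their highest group mean.

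**Figure D1:**
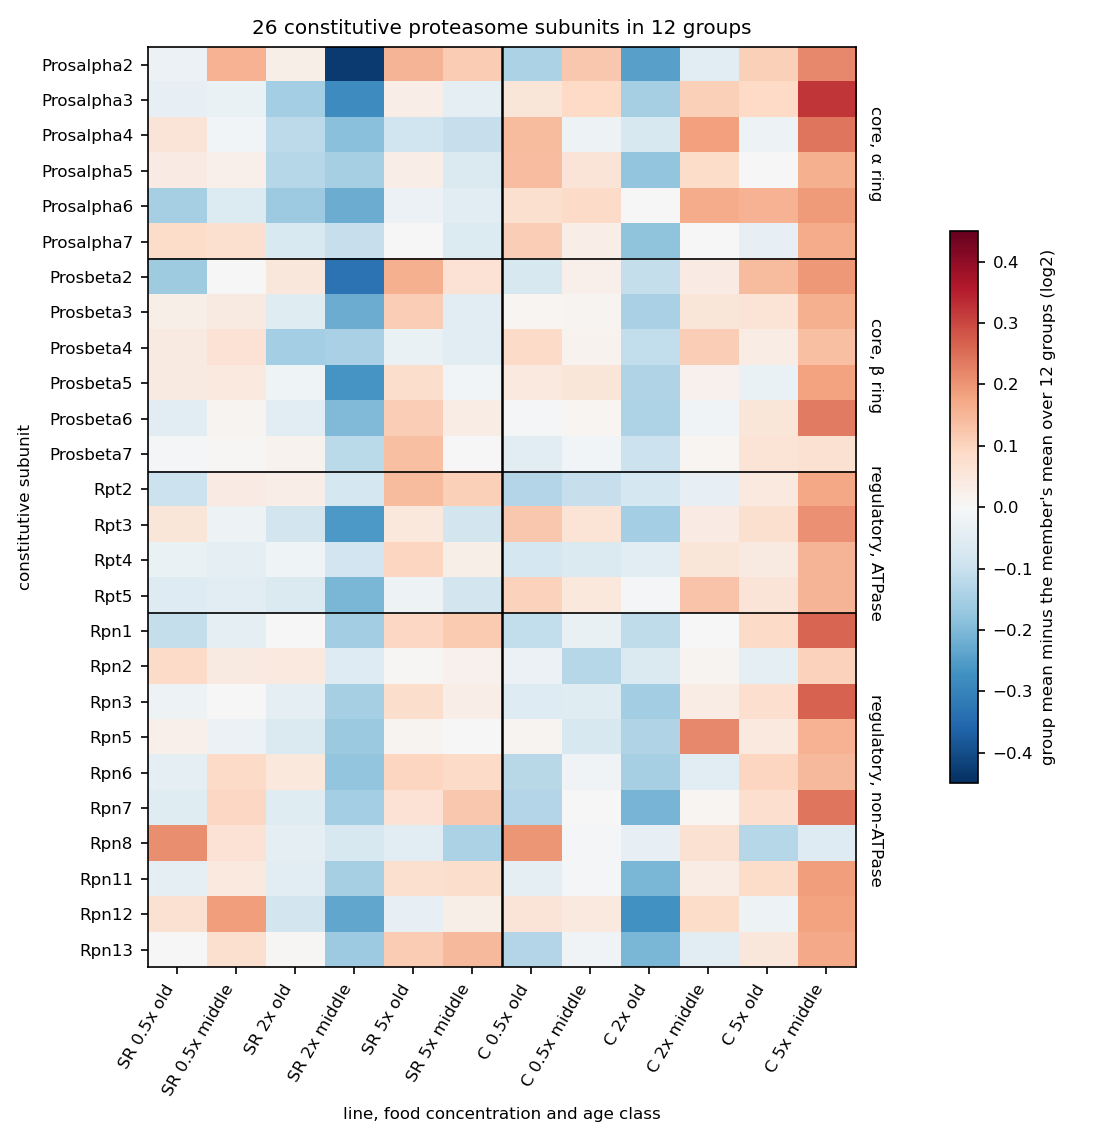
Group means of the 26 constitutive subunits (rows) in the 12 groups of line, food and age (columns), as the log2 difference from each gene's mean over groups. The column of middle-aged SR flies on optimal food is the low one for 15 genes, and that of middle-aged C flies on overfeeding is the high one for 22.

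Before these groups are compared, 5 arrays have to be set apart. On them the control probe sets for actin differed by 2.75 to 3.43 between the 3′ and the 5′ end of the transcript, against 1.23 to 2.31 on the other 41 arrays, a sign of lower RNA quality. The controls for GAPDH showed the same order, with 2.25 to 2.52 on the 5 arrays and 1.51 to 2.13 on the other 41. By group the mean actin difference was highest in middle-aged SR flies on optimal food, at 2.44, where the subunit mean was lowest. It was lowest in middle-aged C flies on overfeeding, at 1.47, where the subunit mean was highest. The part of RNA quality in that ranking of groups was not tested. The 5 arrays are replicate 1 of old SR flies on malnutrition, of middle-aged SR flies on optimal food, of old C flies on malnutrition, and of C flies of both ages on optimal food.

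Proteasome genes were low on these 5 arrays, though unequally so and not only there. Prosalpha2, of the alpha ring, read 10.13 to 10.50 on the 5 arrays and 10.74 to 11.67 on the other 41, so that the ranges did not overlap. Prosbeta2, the subunit with trypsin-like activity, read 10.59 to 11.30 on the 5 arrays and 11.15 to 11.91 on the others. On replicate 1 of old SR flies on malnutrition all 26 subunits were the lowest of their group, with a median difference of -0.45 from the mean of the other 3 arrays. On replicate 1 of middle-aged SR flies on optimal food 22 were the lowest, with a median difference of -0.29. On replicate 1 of the C flies of middle age on optimal food 21 were the lowest, with a median difference of -0.26. In old C flies replicate 1 on optimal food and replicate 1 on malnutrition had 13 and 11 subunits at the lowest value of their group, with median differences of -0.10 and -0.05. Arrays without a wide actin difference reached such counts too. Replicate 2 of middle-aged C flies on malnutrition had 24 subunits at the lowest value. On overfeeding replicate 4 of middle-aged SR flies had 21 and replicate 4 of middle-aged C flies had 18. Both of these arrays on overfeeding had the highest actin difference of their group, at 2.31 in SR and 1.87 in C. That of SR was also the highest of the 41 arrays. The array on malnutrition had the lowest of its group, at 1.80. Rpn8, the partner of the deubiquitinase Rpn11 in the lid, went the other way on 4 of the 5 arrays, by 0.12 to 0.45 above the other arrays of its group. The counts of called subunits in comparisons that hold these arrays are therefore given also without them and with the actin end difference as a covariate, 2 alternatives chosen after the values were seen.

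**Figure D2:**
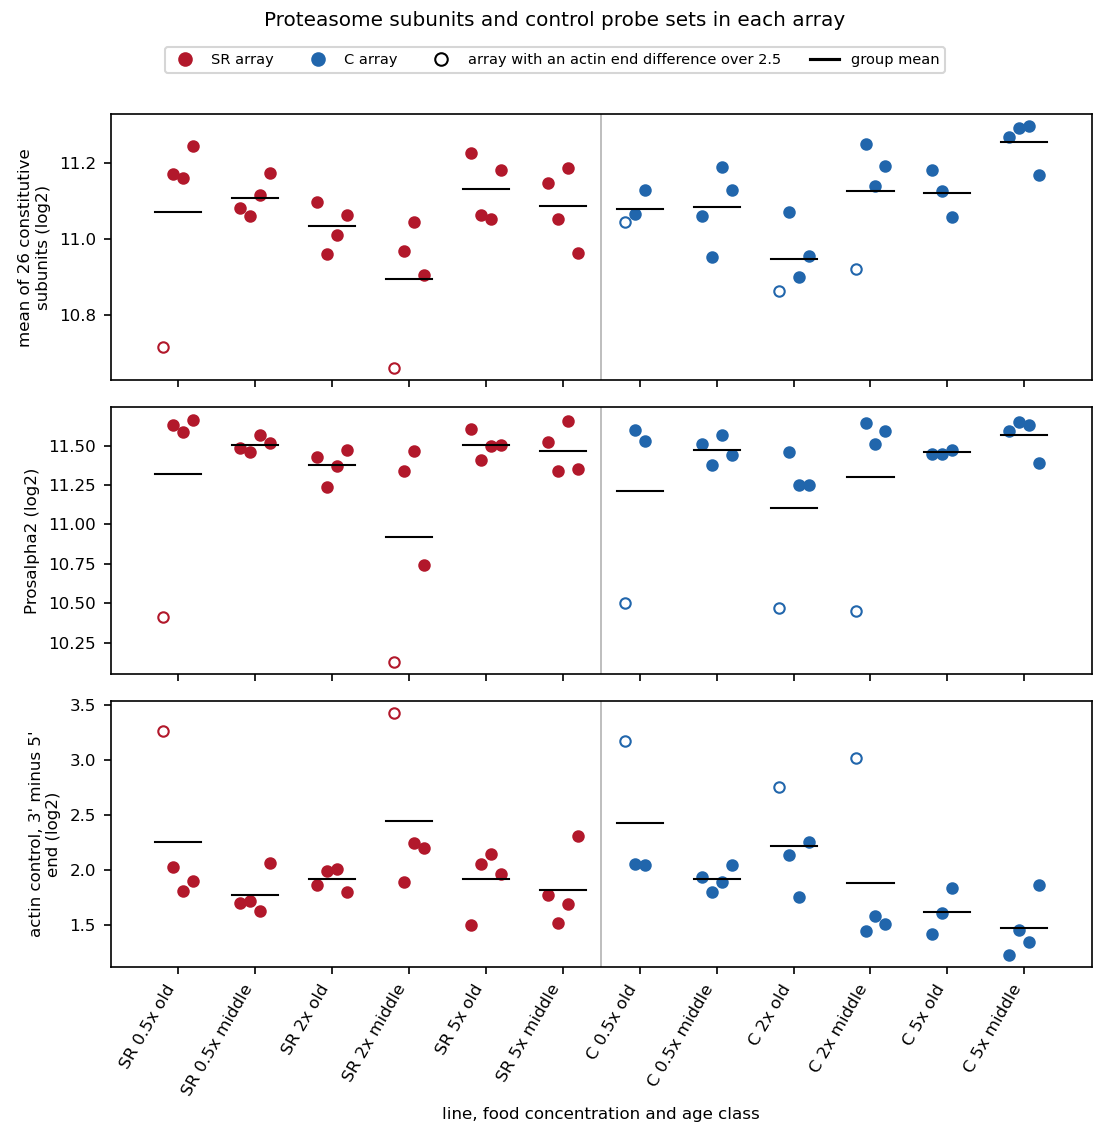
Each point is 1 array, by group, for the mean log2 value of the 26 constitutive subunits, for Prosalpha2 and for the 3′ minus 5′ difference of the actin controls. Open symbols mark the 5 arrays with an actin difference of 2.75 to 3.43, on which Prosalpha2 lay at 10.13 to 10.50.

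The largest difference between the lines among all 40 genes was in Prosbeta2R2, the copy of the catalytic subunit Prosbeta2. On optimal food it read 7.25, 7.77, 7.05 and 7.41 in old SR flies, against 4.65, 3.61, 6.01 and 4.21 in old C flies. In middle-aged flies it read 7.25, 6.68, 7.37 and 6.95 in SR, against 5.48, 3.99, 4.44 and 4.33 in C. Every SR array was above every C array of the same food and age.

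The same separation was seen on the other foods. On overfeeding Prosbeta2R2 read 7.88, 8.36, 6.66 and 7.76 in old SR flies, against 4.25, 4.60 and 4.02 in old C flies. Middle-aged flies on overfeeding gave 6.88, 6.73, 6.50 and 6.49 in SR, against 6.13, 6.31, 4.07 and 4.28 in C. The 2 higher C arrays there lay close below the lowest SR arrays.

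On malnutrition Prosbeta2R2 read 7.22, 7.12, 6.46 and 6.60 in old SR flies, against 4.88, 5.12 and 5.01 in old C flies. Middle-aged flies on malnutrition gave 6.02, 6.88, 6.54 and 6.66 in SR, against 4.26, 5.84, 4.32 and 5.68 in C. Averaged over foods and ages the SR line was higher by 2.24 ± 0.18 (adjusted p = 1.22e-12, limma). The lower C values lie near the dim end of the array, where a log2 difference understates a change, so no fold is given. The C arrays ranged from 3.61 to 6.31 and were more scattered (SD 0.79, n = 22) than the SR arrays from 6.02 to 8.36 (SD 0.55, n = 24).

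The difference in Prosbeta2R2 was called in each of the 6 pairs of groups, in which 2.55% to 16.7% of all probe sets were called. It was 3.38 ± 0.47 in old flies on overfeeding (adjusted p = 5.45e-06), 2.75 ± 0.43 in old flies on optimal food (3.81e-05) and 2.50 ± 0.43 in middle-aged flies on optimal food (0.000115), and these 3 calls held when any 1 array was left out. It was smaller in old flies on malnutrition, at 1.84 ± 0.47 (adjusted p = 0.0148), in middle-aged flies on malnutrition, at 1.50 ± 0.43 (0.0411), and in middle-aged flies on overfeeding, at 1.45 ± 0.43 (0.0437). These 3 calls were lost in 2 of 7, 5 of 8 and 6 of 8 fits that left out an array, with adjusted p up to 0.055, 0.204 and 0.241 in that order, and the first of them also without the 5 arrays (0.0596). Prosbeta2R2 is measured by 1 probe set, so a difference in sequence under the probes and a difference in transcript level between the lines cannot be told apart. The 10 genes nearest to it with a probe set of their own, in the RefSeq annotation of release 6, differed between SR and C by between -0.10 and 0.13 on average. Among them CG12590, dpr16, CG12589 and CG14664 lay near the dim end, with line means of 3.44 to 4.57, where a difference may not show.

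**Figure D3:**
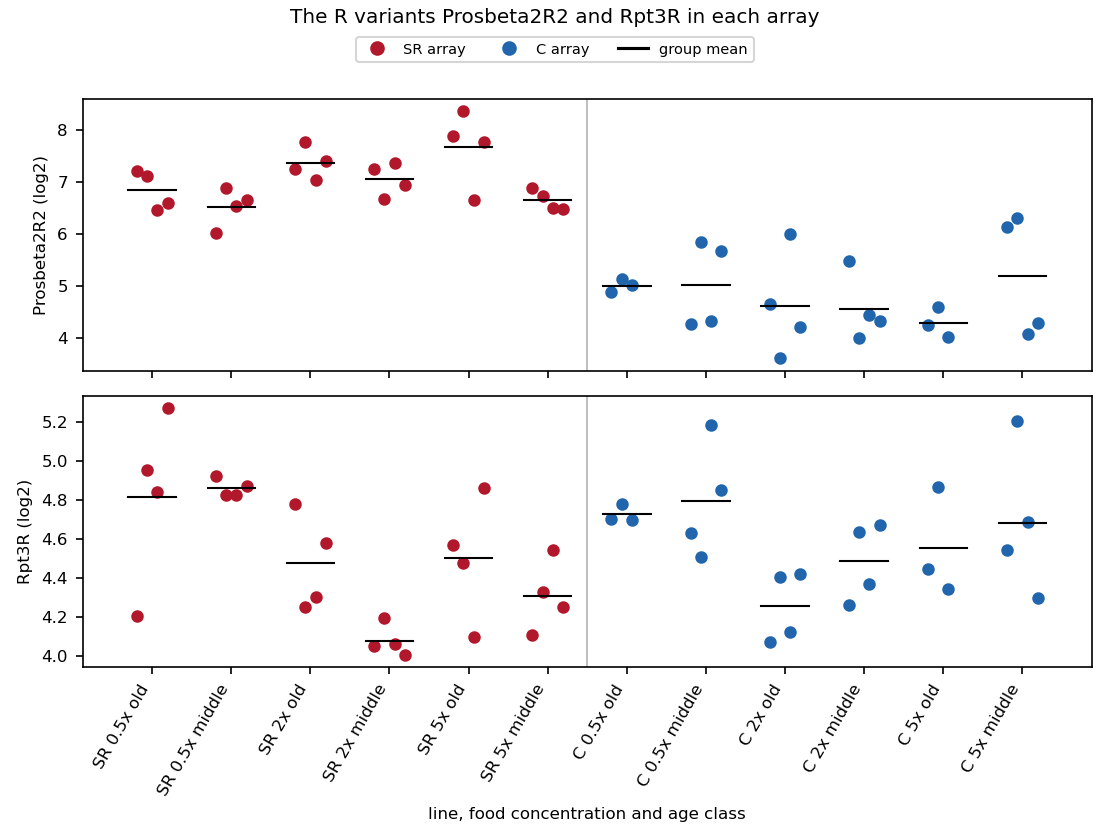
Log2 values of Prosbeta2R2 and Rpt3R on each array by line, food and age. Prosbeta2R2 ranged from 6.02 to 8.36 in SR and from 3.61 to 6.31 in C, with no overlap within any food and age. Rpt3R was highest on malnutrition, with a median of 4.83 against 4.28 on optimal food.

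Of the other 13 copies only Rpt3R and Rpn13R were called anywhere. Rpt3R, the copy of the ATPase Rpt3, read 4.92, 4.83, 4.82 and 4.87 in middle-aged SR flies on malnutrition, against 4.05, 4.19, 4.06 and 4.01 on optimal food. All values on malnutrition were above all those on optimal food, by 0.78 ± 0.18 on average (adjusted p = 0.00228), and the call held without any 1 of the 8 arrays. Averaged over lines and ages the rise on malnutrition was 0.48 ± 0.09 (adjusted p = 4.94e-05), with ranges of 4.20 to 5.27 on malnutrition and 4.01 to 4.78 on optimal food that overlapped. On overfeeding the gene ranged from 4.10 to 5.20. Rpn13R, the copy of the ubiquitin receptor Rpn13, was higher in SR by 0.16 ± 0.06 on average (adjusted p = 0.0352), a call that 13 of the 46 left-out arrays ended, with adjusted p up to 0.0694. Both lie near the dim end of the array, and detection above background was not analysed. A log2 difference there understates a change where the probe set reads its transcript, and may be background where it does not.

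Among the constitutive subunits, the line comparison asks whether the selected flies carry different transcript levels of the protease. Protein amount and activity were not measured. Each subunit is measured by 1 probe set. A difference in sequence under the probes and one in transcript level between the lines cannot be told apart for these genes either. In middle-aged flies on optimal food SR had lower levels than C for all 26 subunits by sign, with a median of -0.21. Of them 9 passed the test, all lower in SR, where 16.7% of all probe sets were called and 8.22% were called lower. Among the 1645 probe sets of similar brightness, with means of 10 or more, 15.2% were called lower and the median difference was -0.05. The 9 were from every part of the complex: the ATPases Rpt5 and Rpt3, the alpha ring subunits Prosalpha3, Prosalpha4 and Prosalpha6, the beta ring subunits Prosbeta3 and Prosbeta5, and the lid subunits Rpn5 and Rpn12.

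Rpt5, an ATPase of the ring that threads substrates into the core, read 10.49, 10.64, 10.67 and 10.55 in middle-aged SR flies on optimal food, against 10.87, 10.97, 10.93 and 10.92 in C flies. The arrays did not overlap, and the difference was -0.33 ± 0.07, or 0.793-fold (adjusted p = 0.0014). Prosalpha6, of the alpha ring, read 10.31, 10.58, 10.63 and 10.57 in SR, against 10.80, 11.00, 10.91 and 10.94 in C. Again no array of one line reached the other, at -0.39 ± 0.10, or 0.763-fold (adjusted p = 0.0047).

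Rpn5, a subunit of the lid, read 11.50, 11.50, 11.50 and 11.59 in SR, against 11.95, 11.997, 11.78 and 11.89 in C (-0.38 ± 0.10, adjusted p = 0.0054). Prosalpha4, also of the alpha ring, read 10.65, 10.83, 10.66 and 10.76 in SR, against 11.10, 11.12, 11.06 and 11.10 in C (-0.37 ± 0.10, adjusted p = 0.0093). Neither gene had overlapping arrays. Prosbeta5, which carries the chymotrypsin-like activity, read 11.33, 11.63, 11.65 and 11.32 in SR, against 11.62, 11.89, 11.75 and 11.80 in C. Its lines overlapped, and it passed at -0.28 ± 0.09 (adjusted p = 0.0256).

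Prosbeta2 is the other catalytic subunit with a probe set. It read 10.59, 11.44, 11.50 and 11.15 in middle-aged SR flies on optimal food, against 10.81, 11.91, 11.72 and 11.70 in C flies. The first array of each line is one of the 5, and the difference of -0.37 ± 0.18 did not pass (adjusted p = 0.175).

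Without the 5 arrays 12 subunits were lower in middle-aged SR flies on optimal food, and with the actin difference as a covariate 6 were. On the arrays left after that removal the actin difference still did not overlap between the lines. It lay at 1.89 to 2.25 in SR and at 1.44 to 1.58 in C, and its part was not tested further. The count was 4 without replicate 1 of these SR flies, 5 without their replicate 4, 5 without replicate 4 of the C flies, and 4 in a fit of these 8 arrays alone. Rpt5, Prosalpha4, Prosalpha6 and Rpn5 passed whichever single array was left out. Of 8 tissue marker lists 2 did not overlap between these groups. The haemocyte list (8 genes) lay at 7.94 to 8.25 in SR and 7.08 to 7.44 in C, and the neuron list (14 genes) at 5.91 to 6.26 in SR and 5.68 to 5.85 in C. The muscle list averaged 9.57 in SR and 9.14 in C, with overlap. The part of these lists in the line difference was not tested.

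Middle-aged SR flies on overfeeding were also lower than C for all 26 subunits by sign, with a median of -0.16. Of them 4 passed, where 4.47% of all probe sets were called, 1.8% lower. They were Prosalpha3, Prosalpha4, Rpt3 and Rpt5, and all had also passed on optimal food. Prosalpha3, of the alpha ring, read 11.06, 11.04, 11.05 and 10.87 in SR, against 11.40, 11.34, 11.44 and 11.29 in C (-0.36 ± 0.11, adjusted p = 0.0376). Rpt3, an ATPase, read 10.86, 10.77, 10.91 and 10.75 in SR, against 11.14, 11.12, 11.22 and 10.97 in C (-0.29 ± 0.08, adjusted p = 0.0356). Neither gene had overlapping arrays. None of the 5 arrays belongs to these groups, but the actin difference averaged 1.82 in these SR flies and 1.47 in the C flies, with overlap. Of the 5 calls of members here, Prosbeta2R2 included, 2 held with the actin difference as a covariate. Leaving out SR replicate 2 or 4 or C replicate 1, 2 or 3 ended all 4 calls of constitutive subunits, and 1 passed without SR replicate 1. The haemocyte list again did not overlap, at 7.38 to 7.92 in SR and 6.97 to 7.31 in C, and its part was not tested.

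In the other pairs of groups no constitutive subunit differed between the lines by limma. On optimal food old flies gave a median of 0.11 and 1 subunit with an unadjusted p under 0.05, where 4.35% of all probe sets were called. Old flies on overfeeding gave a median of 0.01 and 0 such subunits (2.55% called). On malnutrition the medians were 0.01 in old and 0.03 in middle-aged flies, with 2 and 1 such subunits (3.59% and 3.41% called).

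**Figure D4:**
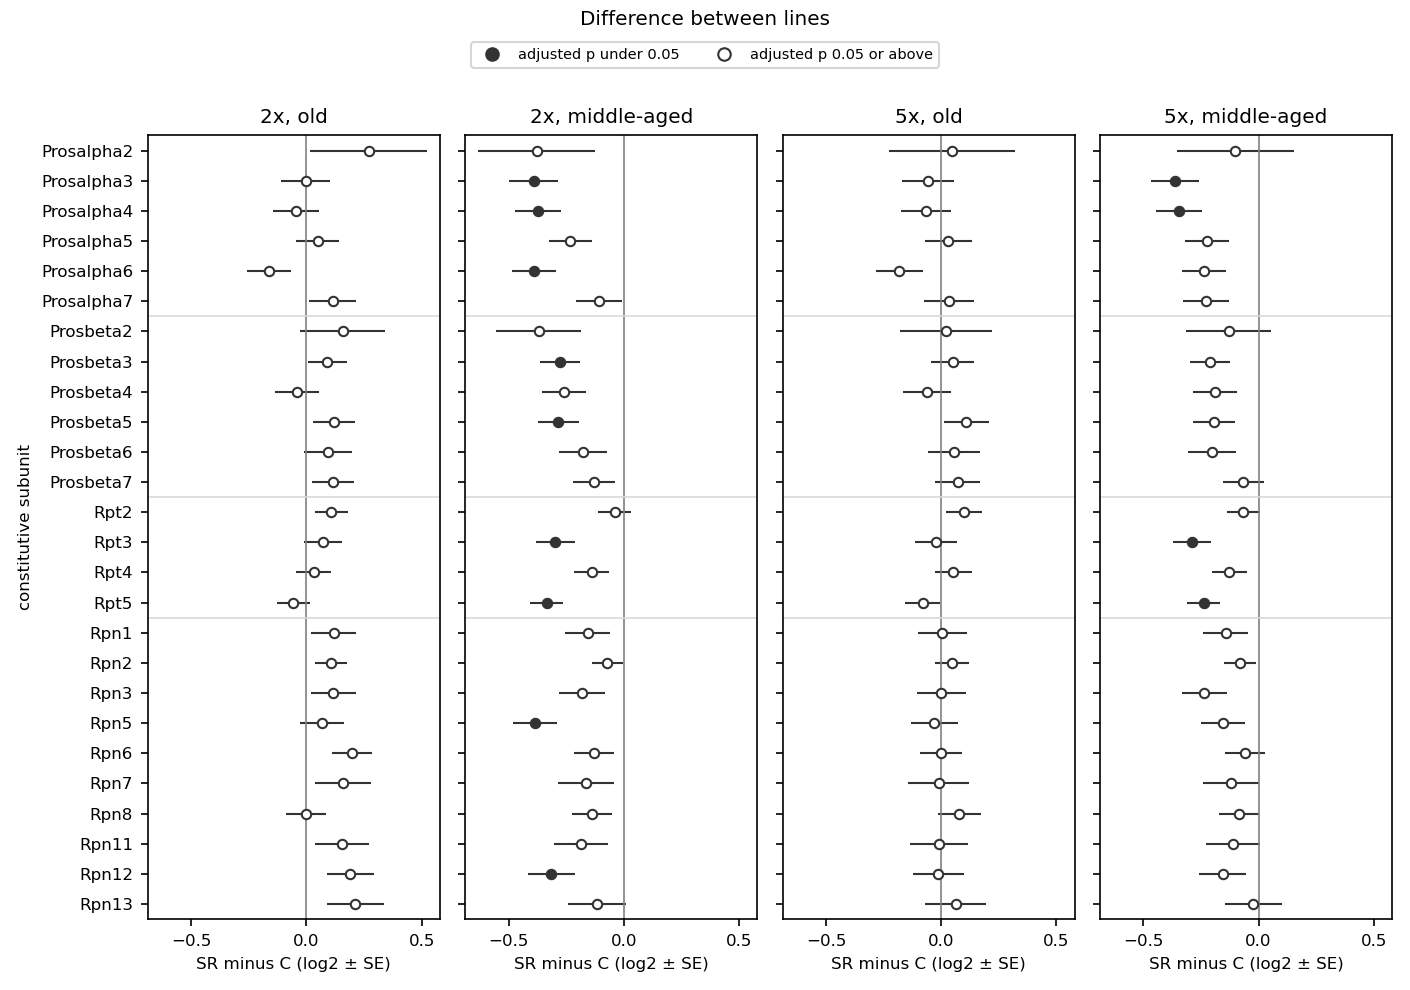
SR minus C log2 differences with standard errors for the 26 constitutive subunits on optimal food (2x) and overfeeding (5x), old and middle-aged. In middle-aged flies all 26 points lie below 0 on both foods, with 9 and 4 called. In old flies the medians were 0.11 and 0.01, with none called.

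Averaged over foods and ages 5 subunits were lower in SR, where 20.2% of all probe sets were called and 8.8% were called lower, and 11.1% of those with means of 10 or more. Prosalpha6 differed by -0.22 ± 0.04 (adjusted p = 3.83e-05) and Rpt5 by -0.16 ± 0.03 (6.81e-05). Both were lower in SR in each of the 6 pairs of group means, with differences from -0.39 to -0.15 for Prosalpha6 and from -0.33 to -0.06 for Rpt5. Prosalpha3 followed at -0.17 ± 0.04 (adjusted p = 0.00352), Prosalpha4 at -0.15 (0.00737) and Rpt3 at -0.12 (0.0143), and all 5 stayed called in every fit that left out 1 array and with the actin difference as a covariate. Without the 5 arrays Prosalpha4 did not pass (adjusted p = 0.0679) and the other 4 did. Rpn13, a ubiquitin receptor, was furthest the other way at 0.06 ± 0.05 (adjusted p = 0.497). The average covers a difference that was -0.21 at the median in middle-aged flies on optimal food and 0.11 in old ones.

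The comparison of old with middle-aged flies asks what happens to these transcripts late in life. In C flies on optimal food, old flies were lower for all 26 subunits by sign, with a median of -0.17. Only 3 passed, Rpn5, Rpn12 and Prosalpha5, where 26% of all probe sets were called and 16.3% were called lower. Among probe sets with means of 10 or more 32.7% were called lower, with a median of -0.11, so the share of the subunits, 3 of 26, was not above that background.

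In C flies on optimal food Rpn5 read 11.73, 11.60, 11.38 and 11.52 in old flies, against 11.95, 11.997, 11.78 and 11.89 in middle-aged ones (-0.35 ± 0.10, or 0.785-fold, adjusted p = 0.0075). Rpn12, also a lid subunit, read 10.59, 10.68, 10.43 and 10.59 in old flies, against 10.78, 10.98, 10.93 and 11.00 in middle-aged ones (-0.35 ± 0.10, 0.783-fold, adjusted p = 0.0103). Prosalpha5, of the alpha ring, read 11.30, 11.49, 11.31 and 11.40 in old flies, against 11.57, 11.71, 11.60 and 11.65 in middle-aged ones (-0.26 ± 0.09, adjusted p = 0.0358). No array of the old flies reached the middle-aged ones in any of the 3 genes.

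How many subunits passed in these C flies depended on single arrays. It was 10 without replicate 1 of the middle-aged flies, one of the 5 arrays, 13 without all of the 5, 6 without replicate 2 of the old flies, and 0 without replicate 3 of the old flies. Without the 5 arrays the actin difference still lay apart, at 1.76 to 2.25 in old and 1.44 to 1.58 in middle-aged flies. With the actin difference as a covariate Rpn5 and Rpn12 passed, and Prosalpha5 had an adjusted p of 0.0615. Replicate 3 of the old flies had the lowest germline list of all 46, at 9.09, and the list lay at 9.09 to 9.53 in old and 9.63 to 9.74 in middle-aged C flies. With the germline list as a covariate 0 subunits were called, and 232 probe sets in place of 4936. As the list did not overlap between these ages, the covariate takes up part of any age difference. This fit therefore cannot separate the part of the germline list from age. Among the 8 tissue lists 2 others did not overlap and differed by more. The haemocyte list lay at 7.85 to 8.31 in old and 7.08 to 7.44 in middle-aged flies, and the muscle list of 11 genes at 9.63 to 10.47 in old and 8.95 to 9.52 in middle-aged flies. The part of these 2 lists was not tested.

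Old SR flies on optimal food went the other way, with 25 of 26 subunits higher by sign and a median of 0.12. None passed, with 4 at an unadjusted p under 0.05, where 0.955% of all probe sets were called. None passed in old flies of the other groups either. The medians were 0.04 in SR on overfeeding (0 with an unadjusted p under 0.05, 1.79% called), -0.02 in SR on malnutrition (0, 0.327%), -0.12 in C on overfeeding (3, 1.24%) and -0.01 in C on malnutrition (1, 0.823%). Averaged over lines and foods the nearest were Rpn12 at -0.10 (adjusted p = 0.117), Rpn7, another lid subunit, at -0.10 (0.161), and Rpn8 at 0.05 (0.387), with 0 called where 18.2% of all probe sets were called and 1 with an unadjusted p under 0.05.

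The difference between the lines in their change with age was itself tested. On optimal food the SR change minus the C change was positive for all 26 subunits, with a median of 0.31, against 0.13 among probe sets with means of 10 or more. Rpn12 passed at 0.51 ± 0.14 (adjusted p = 0.041) and Rpn5 at 0.45 ± 0.14 (0.0442), where 5.26% of all probe sets were called, 3.18% higher. For Rpn12 the SR arrays read 10.82, 10.65, 10.72 and 10.85 in old flies, against 10.35, 10.64, 10.88 and 10.57 in middle-aged ones. For Rpn5 they read 11.71, 11.58, 11.57 and 11.64 in old SR flies, against 11.50, 11.50, 11.50 and 11.59 in middle-aged ones. The SR ages overlapped in both genes, whereas the C ages given above did not.

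These 2 calls depended on the arrays in use. The count was 7 without the 5 arrays and 0 with the actin difference or the germline list as a covariate. It was 0 without replicate 1, 3 or 4 of the old SR flies, replicate 1 or 4 of the middle-aged SR flies, replicate 3 or 4 of the old C flies, or replicate 2 or 4 of the middle-aged C flies. It was 1 without replicate 3 of the middle-aged C flies, 4 and 5 without replicate 2 of the old SR and of the old C flies, 7 without replicate 3 of the middle-aged SR flies, and 8 without replicate 1 of the middle-aged C flies. On overfeeding the line by age difference was also positive for all 26 subunits, with a median of 0.15, but 0 passed (3 with an unadjusted p under 0.05, 0.095% of all probe sets called). On malnutrition the median was -0.04, and 0 passed (0 with an unadjusted p under 0.05, 0.0264% called).

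The food comparisons set malnutrition and overfeeding against optimal food. On malnutrition, averaged over lines and ages, 9 constitutive subunits were higher and none lower, where 31.7% of all probe sets were called and 18.2% were called higher. Among probe sets with means of 10 or more 27.8% were called higher, with a median of 0.04 against 0.08 for the 26, so a share of 9 in 26 is close to that background. Rpn12 led at 0.22 ± 0.05 (adjusted p = 0.001), followed by Rpt3 at 0.17 ± 0.04 (0.00177), Prosalpha5 at 0.16 ± 0.05 (0.009) and Prosbeta5 at 0.15 ± 0.05 (0.0118). The others were Prosalpha7, Rpn8, Prosbeta3, Prosbeta4 and Prosalpha3, at 0.12 to 0.16. Rpt2, an ATPase that opens the gate of the core, was furthest the other way at -0.03 (adjusted p = 0.549). Of the 10 calls on malnutrition, Rpt3R included, 6 held whichever single array was left out, and all 10 held both without the 5 arrays and with the actin difference as a covariate.

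The single groups differed in which subunits passed on malnutrition. In middle-aged SR flies all 26 were higher by sign, with a median of 0.19, and 4 passed (13.8% of all probe sets called, 7.36% higher). Rpn12 read 10.93, 10.94, 11.08 and 11.18 on malnutrition, against 10.35, 10.64, 10.88 and 10.57 on optimal food (0.42 ± 0.10, 1.34-fold, adjusted p = 0.0042). Prosbeta5 read 11.73, 11.74, 11.86 and 11.83 on malnutrition, against 11.33, 11.63, 11.65 and 11.32 on optimal food (0.31 ± 0.09, adjusted p = 0.018). The foods did not overlap in either gene. The other calls were Rpn6, a lid subunit, at 0.27 (adjusted p = 0.034), and Prosbeta3 at 0.27 (0.0355). The count was 1 without replicate 1 or replicate 4 of the SR flies on optimal food, 2 without any 1 of the 4 on malnutrition, and 7 without replicate 3 of those on optimal food. It was 4 without the 5 arrays, where Prosbeta3 had an adjusted p of 0.0653, and with the actin difference as a covariate Rpn12 alone passed.

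In old C flies on malnutrition 3 subunits passed (17.5% of all probe sets called, 9.52% higher). A share of 3 in 26 is close to that background. Prosalpha5 read 11.72, 11.71 and 11.64, against 11.30, 11.49, 11.31 and 11.40 on optimal food (0.32, adjusted p = 0.0244). Rpn12 read 10.82, 10.89 and 10.99 on malnutrition, against 10.59, 10.68, 10.43 and 10.59 on optimal food (0.33, adjusted p = 0.0325). Neither gene overlapped between foods, and Rpt3 passed at 0.28 (adjusted p = 0.0272). Each of these 3 calls was lost in 4 of the 7 fits that left out an array of these groups. The adjusted p was highest without replicate 3 on malnutrition for Rpt3 (0.13) and Rpn12 (0.128), and without replicate 1 on malnutrition for Prosalpha5 (0.0837). Without replicate 3 on optimal food 0 subunits passed, and without replicate 4 only 1 did. The count was 4 without the 5 arrays, where Prosalpha5 had an adjusted p of 0.0614, and 7 with the actin difference as a covariate.

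In old SR flies Rpn8 alone passed on malnutrition, 1 of 26 and so not above background (16.2% of all probe sets called, 8.24% higher). It read 10.74, 10.79, 10.78 and 10.86, against 10.53, 10.58, 10.50 and 10.55 on optimal food, with no overlap (0.25 ± 0.09, adjusted p = 0.0432). Without replicate 1 of these flies on malnutrition, on which all 26 subunits were the lowest of the group, 5 passed, and without the 5 arrays 8 did. With the actin difference as a covariate 4 passed, and Rpn8 had an adjusted p of 0.0691. Without any other single array of these 2 groups 0 passed. In middle-aged C flies the 1 call was downward, Rpn5 at -0.29 (adjusted p = 0.0367, 14.1% of all probe sets called, 5.09% lower), and it was lost when any 1 of 6 of the 8 arrays was left out. That share, 1 of 26, was not above background either. The middle-aged lines thus gave medians of 0.19 in SR and -0.03 in C, and their difference, tested directly, was positive for all 26 subunits with a median of 0.24, but 0 passed (8 with an unadjusted p under 0.05, 2.13% of all probe sets called). The old lines differed in this change by a median of -0.09, with 0 called (0 with an unadjusted p under 0.05, 0.285% called). The malnutrition by age difference had medians of -0.15 in SR and 0.18 in C, with 0 called in each (3 and 7 with an unadjusted p under 0.05, 0.67% and 5.2% called).

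On overfeeding more subunits were called than on malnutrition, but none of them with the actin difference as a covariate, where malnutrition had 10. Averaged over lines and ages 25 of 26 constitutive subunits were higher than on optimal food, with a median of 0.16, against 0.04 among probe sets with means of 10 or more. Of the 26, 13 passed, all higher, where 16.3% of all probe sets were called, 8.11% higher, and 13.7% of those with means of 10 or more were called higher. The 13 were 7 non-ATPases (Rpn1, Rpn3, Rpn6, Rpn7, Rpn11, Rpn12 and Rpn13), the ATPases Rpt2 and Rpt3, the beta ring subunits Prosbeta3, Prosbeta5 and Prosbeta6, and Prosalpha3. The changes were small, from 0.15 ± 0.05 for Prosbeta5 to 0.23 ± 0.06 for Rpn7.

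Rpt2 had the smallest adjusted p, at 0.16 ± 0.04 or 1.12-fold (adjusted p = 0.0044). In middle-aged SR flies it read 10.49, 10.46, 10.51 and 10.34 on overfeeding, against 10.08, 10.29, 10.33 and 10.37 on optimal food. In old SR flies it read 10.55, 10.45, 10.48 and 10.47 on overfeeding, against 10.41, 10.30, 10.33 and 10.46 on optimal food. The lowest array on overfeeding lay below the highest on optimal food in both cases.

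In C flies Rpt2 read 10.57, 10.49, 10.62 and 10.38 on overfeeding at middle age, against 10.15, 10.44, 10.26 and 10.37 on optimal food. In old C flies it read 10.37, 10.38 and 10.41 on overfeeding, against 10.21, 10.33, 10.29 and 10.24 on optimal food. The old flies did not overlap between foods, and the middle-aged ones did. Rpn6 rose by 0.19 ± 0.04 (adjusted p = 0.0048) and Rpn1, the scaffold that docks ubiquitin carriers, by 0.21 ± 0.05 (0.0057).

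Of the catalytic subunits, Prosbeta5 passed at 0.15 ± 0.05 (adjusted p = 0.0206), and Prosbeta2 did not at 0.23 ± 0.09 (0.0864). Rpn8 was the 1 subunit with a negative difference, at -0.08 ± 0.04 (adjusted p = 0.249). No member passed within a single line and age, with 12 subunits at an unadjusted p under 0.05 in middle-aged SR, 0 in old SR, 5 in middle-aged C and 8 in old C flies (1.1%, 0.248%, 0.0106% and 0.871% of all probe sets called). The percentages count adjusted calls, so the unadjusted counts cannot be set against them. The medians of the 4 comparisons were 0.18, 0.11, 0.16 and 0.19.

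**Figure D5:**
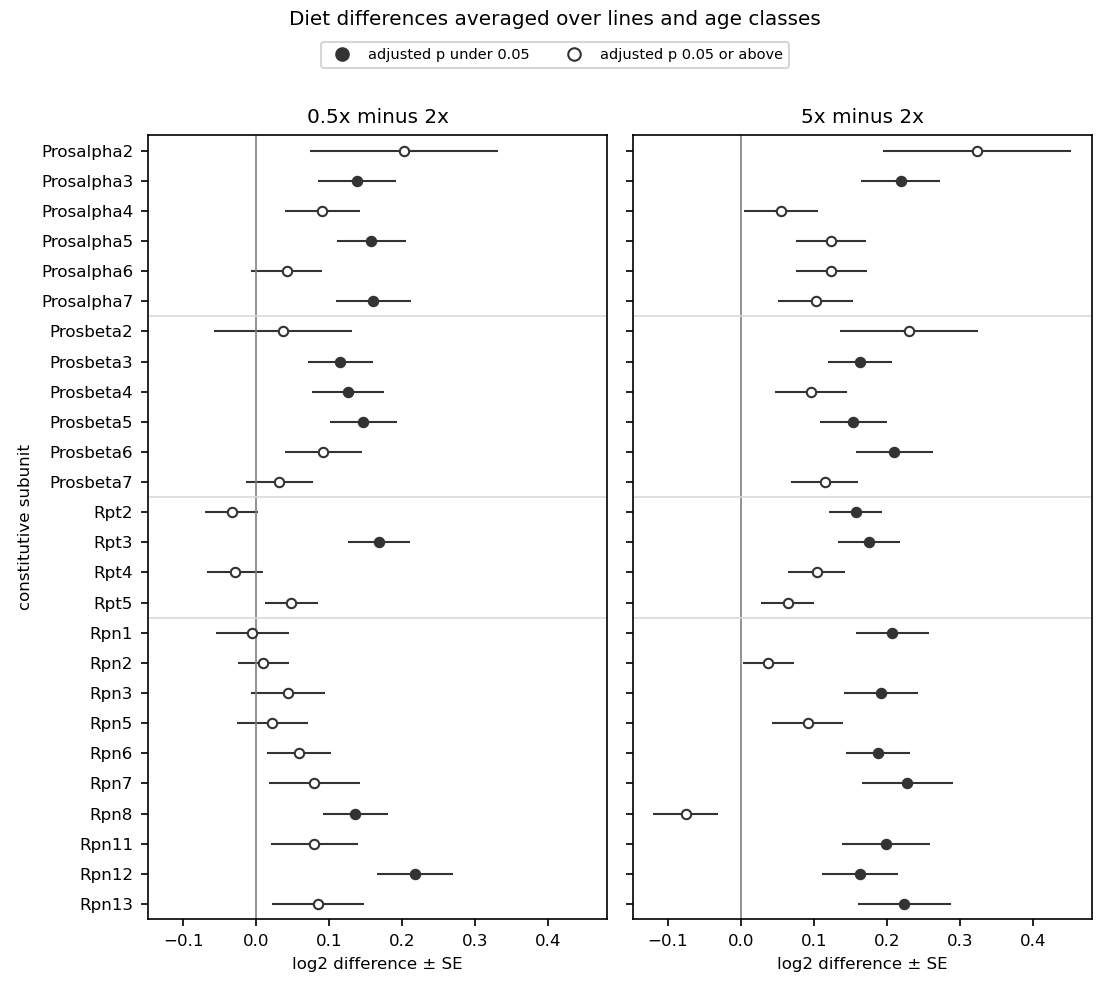
Differences from optimal food averaged over lines and ages, with standard errors, for the 26 constitutive subunits on malnutrition and on overfeeding. On malnutrition 9 were called higher and the median was 0.08, and on overfeeding 13 were called higher and the median was 0.16. With the actin difference as a covariate the counts were 10 on malnutrition and 0 on overfeeding.

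On overfeeding 12 to 15 subunits were called when single arrays were left out, and 12 of the 13 passed in every such fit. Rpn12 was the exception, with an adjusted p of up to 0.0614. Without the 5 arrays the same 13 genes were called. With the actin difference as a covariate 0 subunits passed, the median was 0.08 and the smallest adjusted p was 0.0539 for Rpt2, while 1028 probe sets were called in place of 3088. Without the 5 arrays the actin difference had medians of 1.91 on malnutrition, 1.89 on optimal food and 1.69 on overfeeding, so it was lowest on the food on which these genes were highest. Its part in the result was not tested further.

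Other tissue lists moved with food more than the proteasome did. From malnutrition through optimal food to overfeeding the eggshell list had medians of 4.79, 6.71 and 8.53, the fat body list 8.66, 9.87 and 10.19, and the midgut list 8.76, 10.67 and 10.31. The muscle list had medians of 10.16, 9.42 and 8.98, and the neuron list 6.76, 5.90 and 5.68. The eggshell list varied widely within a food, at 4.92 to 11.48 on optimal food and 5.08 to 10.47 on overfeeding, and in old SR flies its mean was lower on overfeeding, at 5.73, than on optimal food, at 7.15. The germline list, with medians of 9.56, 9.54 and 9.60, differed little over all arrays of a food, but single groups moved more. In middle-aged C flies its mean was 9.68 on optimal food and 9.44 on malnutrition. In old C flies it was 9.34 on optimal food, 9.41 on malnutrition and 9.56 on overfeeding. The group means of SR flies lay between 9.46 and 9.63. The part of these lists in the proteasome values was not tested.

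A list of 24 genes that assemble, supply or regulate the proteasome was read beside its subunits, with the percentages of all probe sets given above for each comparison. Over lines and ages 14 were higher and 2 lower on malnutrition. Npl4, which works with the segregase TER94 to pull out ubiquitinated proteins, averaged 11.20 on malnutrition and 10.44 on optimal food, and differed by 0.72 ± 0.08 (adjusted p = 1.18e-09). The polyubiquitin gene Ubi-p63E averaged 11.97 on malnutrition and 11.63 on optimal food, and differed by 0.37 ± 0.04 (adjusted p = 1.06e-08). Npl4 passed in 3 and Ubi-p63E in all 4 of the single comparisons of malnutrition, and the average change of each held in all alternatives run.

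The line comparison moved regulators of the complex as well. Averaged over foods and ages 3 of the 24 were higher and 5 lower in SR, and in middle-aged flies on optimal food 3 were higher and 7 lower. Usp14, a deubiquitinase that sits on the proteasome, averaged 10.62 in SR and 11.04 in C (-0.43 ± 0.09, adjusted p = 8.65e-04). Rad23, a shuttle for ubiquitinated substrates, averaged 11.06 in SR and 11.50 in C (-0.43 ± 0.11, adjusted p = 0.0059), and both differences held in all alternatives run. In the other pairs of groups Npl4 was higher in old SR flies on malnutrition, at 0.75 ± 0.17 (adjusted p = 0.0047). On overfeeding 2 passed in middle-aged flies, Usp14 at -0.36 ± 0.09 (adjusted p = 0.0087) and PI31, a proteasome-binding regulator, at -0.37 ± 0.09 (0.0073).

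The factor cnc, whose mammalian relative Nrf1 activates proteasome genes, was called in 4 comparisons, 3 of which also had called subunits of the opposite sign. On overfeeding 4 of the 24 genes were higher and 3 lower on average, and cnc was among the lower ones. It averaged 9.29 on overfeeding and 9.62 on optimal food, a difference of -0.33 ± 0.08 (adjusted p = 0.0044), where 13 subunits were higher. In middle-aged flies on optimal food it averaged 9.77 in SR and 9.35 in C, higher by 0.43 ± 0.15 (adjusted p = 0.0441), where 9 subunits were lower. In C flies on optimal food it averaged 9.74 in old and 9.35 in middle-aged flies, higher by 0.39 ± 0.15 (adjusted p = 0.0469). Of these 3 differences that on overfeeding held without any single array, and each of the other 2 kept its call in 2 of 8 such fits. With the actin difference as a covariate that on overfeeding had an adjusted p of 0.0543.

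Pomp, the chaperone that matures the core particle, was higher in old than in middle-aged C flies by 0.54 ± 0.11 on malnutrition (adjusted p = 0.0112) and by 0.35 ± 0.11 on optimal food (0.0148). On overfeeding it differed from optimal food by -0.22 ± 0.05 on average (adjusted p = 0.0072). The first 2 calls were lost in 2 of 7 and in 3 of 8 fits that left out an array, and the third in none. With age 2 of the 24 genes were higher and 7 lower in C flies on optimal food, among them Uch-L5, a deubiquitinase docked on Rpn13, at -0.53 (adjusted p = 0.0078), and Rad23 at -0.39 (0.0086). There 26% of all probe sets were called, 16.3% lower, and 32.7% of those with means of 10 or more were called lower. With the germline list as a covariate none of these 9 genes passed, with adjusted p from 0.48 for Pomp to 0.956 for cnc. That list did not overlap between these ages, so this fit cannot separate its part from age. Averaged over lines and foods 3 of the 24 were higher in old flies, Ubi-p63E at 0.19 ± 0.04 (adjusted p = 2.89e-04), Pomp at 0.19 ± 0.04 (0.003) and cnc at 0.20 ± 0.06 (0.0216), and 1 was lower. Of all probe sets 18.2% were called there, so the share of the 24 was not above that background.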

How the data were processed

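Total RNA of pools of 5 females was hybridised to Affymetrix Drosophila arrays, 46 in all after the authors left out 2 of low quality. The values the authors deposited are log2 expression computed by RMA, and the submitters' processing notes name R 2.7.0. RMA evens out the distribution of values between arrays, so a shift common to nearly all genes of one array is already removed, and no array was normalised again. Array medians lay between 5.04 and 5.27, and arrays of a group correlated at 0.974 to 0.998. The number of arrays limits the precision.

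Probe sets were named from the platform annotation, and of the 18952 probe sets 13646 name 1 gene, 402 several, and 4903 are not listed. All 40 members have 1 probe set each, and all matched RefSeq by gene identifier. Members and lists were chosen with earlier results of these data known. Promoter sequences were not used here.

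Group means of the 12 groups were fitted with limma 3.58.1 in R 4.3.3, without covariates, to all probe sets, and 31 contrasts were taken. They comprised 6 of age, 6 of line, 4 each of malnutrition and overfeeding, 4 averages and 7 interactions. The fit was tested on simulated data. Given array by array were the catalytic subunits, up to 3 members with the smallest adjusted p in each average contrast and 1 furthest in the opposite direction, and the leading called members of single contrasts. The alternatives were a replicate block, a fit of the compared groups only, a filter at a mean of 5, centring of arrays, the germline list as a covariate, the mean of all probe sets of a gene, and leaving out each array. Added after the values were seen were leaving out arrays with an actin end difference over 2.5 and that difference as a covariate.

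Same-numbered arrays deviated together in every pair, at correlations over 0.1, in 2 of the contrasts: the age contrast of C on optimal food (4 pairs, 0.34 to 0.40) and the line contrast of old flies on overfeeding (3 pairs, 0.12 to 0.19). The labels do not say that a number marks a batch.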

Additional observations from a re-analysis of the deposited data

Results flagged for a closer look

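Over 22 values in each group of 4 arrays, 220 sets of 4 were looked at, and 16 had an array that stood far from the other 3. Chance gives about 1 in 20 for independent values. The values of an array are not independent, as subunits were often low or high together, so the count cannot be set against that rate. Replicate 1 of old SR flies on malnutrition, with an actin end difference of 3.27, accounted for Prosalpha2 at 10.41 (the others 11.59 to 11.66), Prosalpha6 at 10.15 (10.71 to 10.80), Prosbeta2 at 10.59 (11.54 to 11.64), Rpn1 at 9.67 (9.94 to 9.97), Rpn5 at 11.39 (11.82 to 11.83), Rpn7 at 10.07 (10.70 to 10.77) and Rpt3 at 10.73 (11.01 to 11.05). The mean of the 26 constitutive subunits was 10.72 on it, and 11.16 to 11.24 on the others.

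Other arrays with a wide actin difference stood apart for single genes. On replicate 1 of middle-aged C flies on optimal food Prosalpha2 read 10.45 (the others 11.51 to 11.64) and Rpn13 10.41 (10.83 to 10.91). On replicate 1 of old C flies on optimal food Rpn1 read 9.70 (9.92 to 9.96), while Rpn8 was high at 10.83 (10.42 to 10.47).

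Single values stood apart on arrays without a wide actin difference too. Prosalpha3 read 10.87 on replicate 4 of middle-aged SR flies on overfeeding (the others 11.04 to 11.06), and Rpn5 read 11.59 on replicate 4 of middle-aged SR flies on optimal food (11.50 on each of the others). In middle-aged SR flies on malnutrition Rpn6 read 11.17 on replicate 3 (11.23 to 11.24) and Rpt2 10.47 on replicate 4 (10.35 to 10.36).

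A change that differed between groups by a test of the difference itself was found for 6 genes. On optimal food the change with age was more positive in SR than in C for Rpn12, at 0.51 ± 0.14 (adjusted p = 0.041, limma), and for Rpn5, at 0.45 ± 0.14 (0.0442). The same held for the deubiquitinases Uch-L5, at 0.70 ± 0.21 (adjusted p = 0.0432), and Uch, at 0.52 ± 0.16 (0.0496). In C flies the change with malnutrition was more positive in old than in middle-aged flies for Pngl, a glycanase, at 0.49 ± 0.14 (adjusted p = 0.0384), and for Sem1, a small lid subunit outside the naming rule, at 0.55 ± 0.15 (0.0302). With the germline list as a covariate none of the 6 passed. All 6 differences draw on the C flies on optimal food, whose ages did not overlap in that list.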

How the results depend on the processing

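No called difference of a member or of a partner changed its direction under any alternative. Of 64 calls of members, 63 held with the replicate block, 58 with centred arrays, 54 with the germline list as a covariate, 38 of 57 in fits of the compared groups only, 60 without the 5 arrays and 38 with the actin difference as a covariate. The replicate block ended only the call of Rpt5 between the lines in middle-aged flies on overfeeding (adjusted p = 0.0542) and, among partners, those of Pngl on malnutrition in middle-aged SR flies (0.0511) and of Uch in the line by age interaction on optimal food (0.0559). Centring moved the median of all probe sets by more than 0.1 in 1 contrast, the line by age interaction on optimal food, where the shift was -0.11.

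Counts of called constitutive subunits moved as follows. For age in C on optimal food the 3 became 5 with the filter at a mean of 5, 0 with the germline covariate and 13 without the 5 arrays, and ranged from 0 to 10 over left-out arrays. For line in middle-aged flies on optimal food the 9 became 4 in the fit of these groups only (range 4 to 12), and on overfeeding the 4 became 1 in that fit and 2 with the actin covariate (range 0 to 4). For malnutrition in middle-aged SR the 4 became 1 in the fit of these groups only, 2 with centred arrays and 1 with the actin covariate (range 1 to 7). For malnutrition in old SR the 1 became 8 without the 5 arrays and 4 with the actin covariate (range 0 to 5). For malnutrition in middle-aged C the 1 became 0 in the fit of these groups only and with the germline covariate, and 2 without the 5 arrays (range 0 to 1). For malnutrition in old C the 3 became 0 in the fit of these groups only and 7 with the actin covariate (range 0 to 4). On average overfeeding the 13 became 0 with the actin covariate (range 12 to 15), and on average line the 5 became 8 with the germline covariate (range 5 to 6). On average malnutrition the 9 ranged from 6 to 10. The 2 of the line by age interaction on optimal food became 6 with the filter, 1 with centred arrays, 7 without the 5 arrays, and 0 with either covariate (range 0 to 8).

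Some counts of 0 became larger. The germline covariate gave 1 for age in SR on optimal food, for line in old flies on malnutrition and for average age. The malnutrition by age interaction in C became 2 with the filter, 3 without the 5 arrays and 2 with the actin covariate (range 0 to 3). The line by malnutrition interaction in middle-aged flies became 2 with the filter, 2 in the fit of these groups only and 4 without the 5 arrays (range 0 to 2). Overfeeding in middle-aged SR ranged from 0 to 1, and all other counts stayed at 0. The causes of these shifts were not tested. Of the 14 copies, all but Prosbeta2R2 have means under 5, and detection above background was not analysed here.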
